A study of Bos grunniens and Bos grunniens x Bos taurus with 12 samples.

Results

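The proteasome genes of the testis were followed as ribosome footprints (RFs), the short stretches of mRNA that translating ribosomes protect from nuclease in a Ribo-seq experiment. Members were the genes whose deposited symbol begins with PSMA, PSMB, PSMC, PSMD, PSME, PSMF or PSMG and goes on with a digit, which gave 41 of the 20965 genes in the tables. By role, they comprised 5 constitutive subunits and 1 germ-cell subunit of the alpha ring, 4 non-catalytic and 5 catalytic subunits of the beta ring, 6 ATPases and 10 other subunits of the regulatory particle, 2 chaperones of that particle, 4 activators, 1 inhibitor, 1 chaperone of core assembly and 2 genes that only carry a subunit in their name. The testes came from male yak (Bos grunniens) of 6 months (juvenile stage), 18 months (puberty) and 4 years (sexual maturity), and from cattle–yak, the sterile male hybrid of a Jersey bull and a Gannan yak cow, for which the labels also give 4 years and sexual maturity. Each group held 3 animals with 1 library each, and no group carried a treatment or a transgene. The labels describe collection by castration for every group, whereas the methods describe euthanasia for the yak of 4 years and castration for the cattle–yak, so that collection and group may not be separable. Reads of all groups, the hybrid included, were aligned to the yak genome.

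The proteasome is the barrel-shaped protease that degrades proteins tagged with ubiquitin. Its alpha rings gate the barrel, its beta rings carry the cutting sites, and a regulatory particle at either end recognises, unfolds and feeds in the substrate. Cells exposed to interferon replace the catalytic subunits PSMB5, PSMB6 and PSMB7 with PSMB8, PSMB9 and PSMB10, which favours peptides for presentation on MHC class I. Meiotic germ cells make PSMA8, a paralogue of the alpha subunit PSMA7, and testis is also known for PSME4 (PA200), an activator linked to the removal of acetylated histones while sperm form.

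Several parts of the complex carried no symbol in the tables and so were not among the 41. PSMA7 (ENSBGRG00000023084), PSMB6 (ENSBGRG00000025721) and PSMB9 (ENSBGRG00000021991) were taken from the rows whose deposited description names them, and they serve below as partners of PSMA8 (ENSBGRG00000024651) and of the immune subunits. PSMA4, PSMD6 and PSMG1 were not analysed here. PSMB11, the catalytic subunit of the thymus, lay at 0.55 FPKM, the count scaled by gene length and library total, or less in every library and was the 1 member too low to be tested in any comparison.

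The libraries held 16304058 to 52616039 counts, with the fewest in yak of 4 years and the most in cattle–yak. Markers of elongating spermatids checked the tissue, and their summed level was 0.96 to 1.21 FPKM at 6 months, 8382 to 11450 FPKM at 4 years and 1.13 to 26.9 FPKM in cattle–yak. At 18 months it ran from 1.84 to 6810 FPKM, because replicate 2 carried spermatid markers that replicates 1 and 3 nearly lacked. This library stood apart in several of the results below, and fold changes and ratios that rest on it are given with and without it. An RF level joins the amount of an mRNA with its load of ribosomes, and in whole testis fewer cells of a type and less RNA per cell cannot be told apart.

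In cattle–yak testis, most constitutive subunits of the core stood above their level in yak of 4 years, while the germ-cell subunit PSMA8 and the activators PSME3 and PSME4 stood below it. With edgeR's quasi-likelihood test, 22 of the 40 members tested were higher at an adjusted p below 0.05, against a background of 31.5% of all genes tested, and 9 were lower, against 34.2%. The higher members ran from PSMB1 at a log2 fold change of 0.42 to PSMB8 at 1.54, and the lower members from PSMA8 at -2.50 to the inhibitor PSMF1 at -0.52. Of these, 9 higher and 4 lower members also passed a log2 fold change of 1 in size and counted as differentially translated genes (DTGs), against 17.1% and 27.0% of all genes. The members' median log2 fold change was 0.53, beside -0.002 over all genes tested. These 22 and 9 members were called in each of the 10 settings of scaling, filter, test, unit and pairing that used all 6 libraries, and in 5 of the settings the ATPase PSMC5 was called higher as well.

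**Figure D1:**
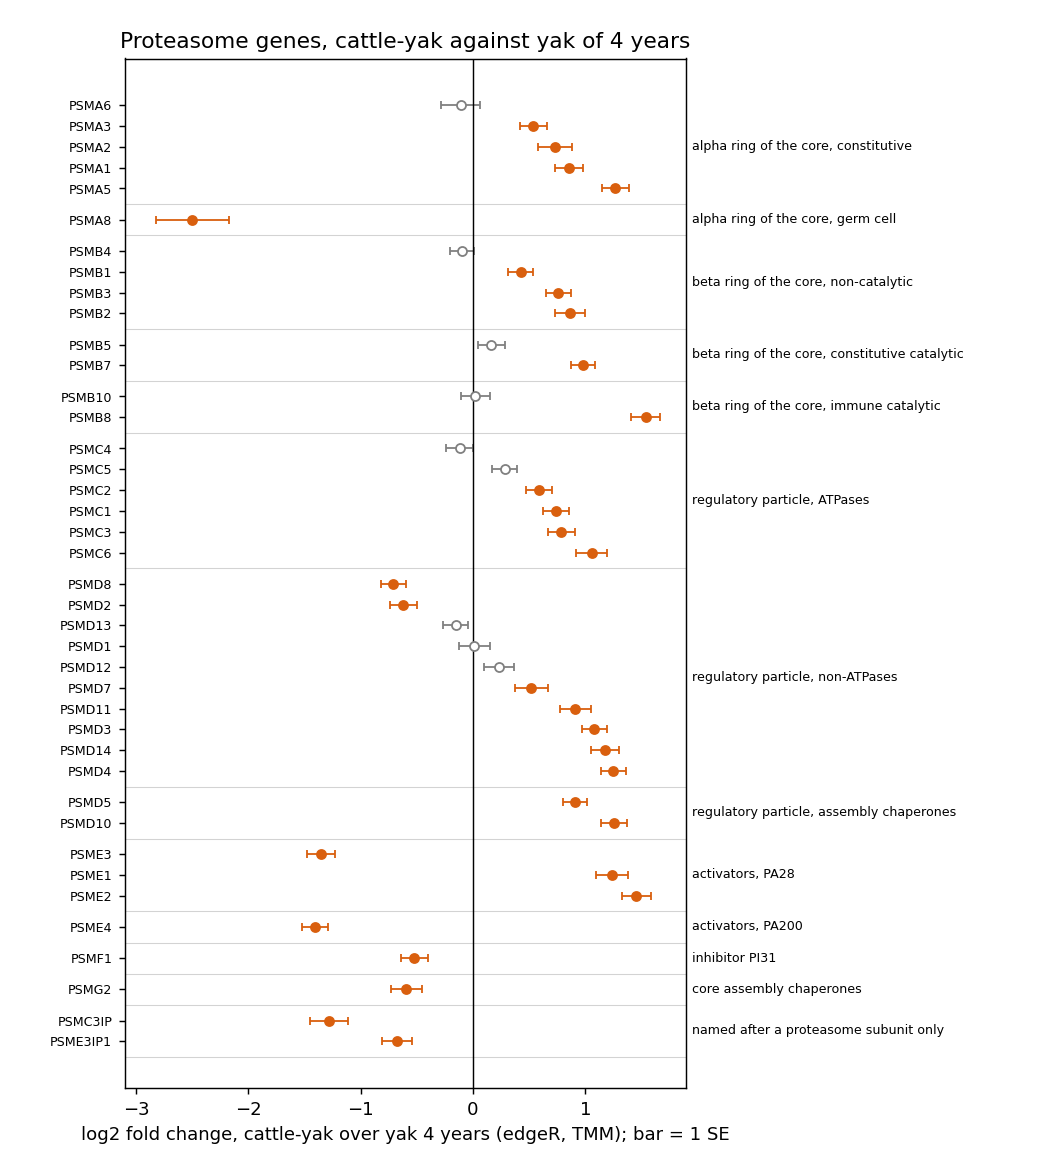
Log2 fold change of the 40 tested proteasome genes in cattle–yak over yak of 4 years (x axis, edgeR with TMM scaling, 3 libraries per group, bars of 1 SE), grouped by role on the y axis. Filled points had an adjusted p below 0.05 and open points did not. Most core and regulatory subunits sit to the right of 0, with PSMB8 farthest at 1.54, while PSMA8 at -2.50, PSME4 at -1.41 and PSME3 at -1.35 sit to the left.

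Between 6 months and 4 years of yak, PSMA8, PSME4 and PSME3 rose and PSME1, PSME2 and the immune subunits PSMB8 and PSMB10 fell. In all, 10 members were higher at 4 years, against 37.7% of all genes tested, and 21 were lower, against 34.8%, with 5 and 10 of them DTGs, against 31.0% and 24.7%. These directions depend on the scaling. The 10 most abundant genes took 20.7% to 22.5% of the counts at 6 months and 8.46% to 10.6% at 4 years, and their part in this was not tested. Scaled by library size alone, 16 members were higher, against 49.8%, and 10 were lower, against 21.5%, and the median of all genes rose by 0.57. Relative to the median of all genes, the members' median was -0.57 with TMM scaling and -0.58 with library size alone. Under every one of the 10 settings, PSMA8, PSMC3IP, PSME3, PSME3IP1, PSME4, PSMF1 and PSMG2 were called higher, and PSMA1, PSMB3, PSMB8, PSMB10, PSMD4, PSMD5, PSMD10, PSME1 and PSME2 were called lower. The yak of 4 years are the same 3 libraries in this comparison and in that with cattle–yak, so that each comparison's values are given side by side and the opposite signs are not counted as separate evidence.

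**Figure D2:**
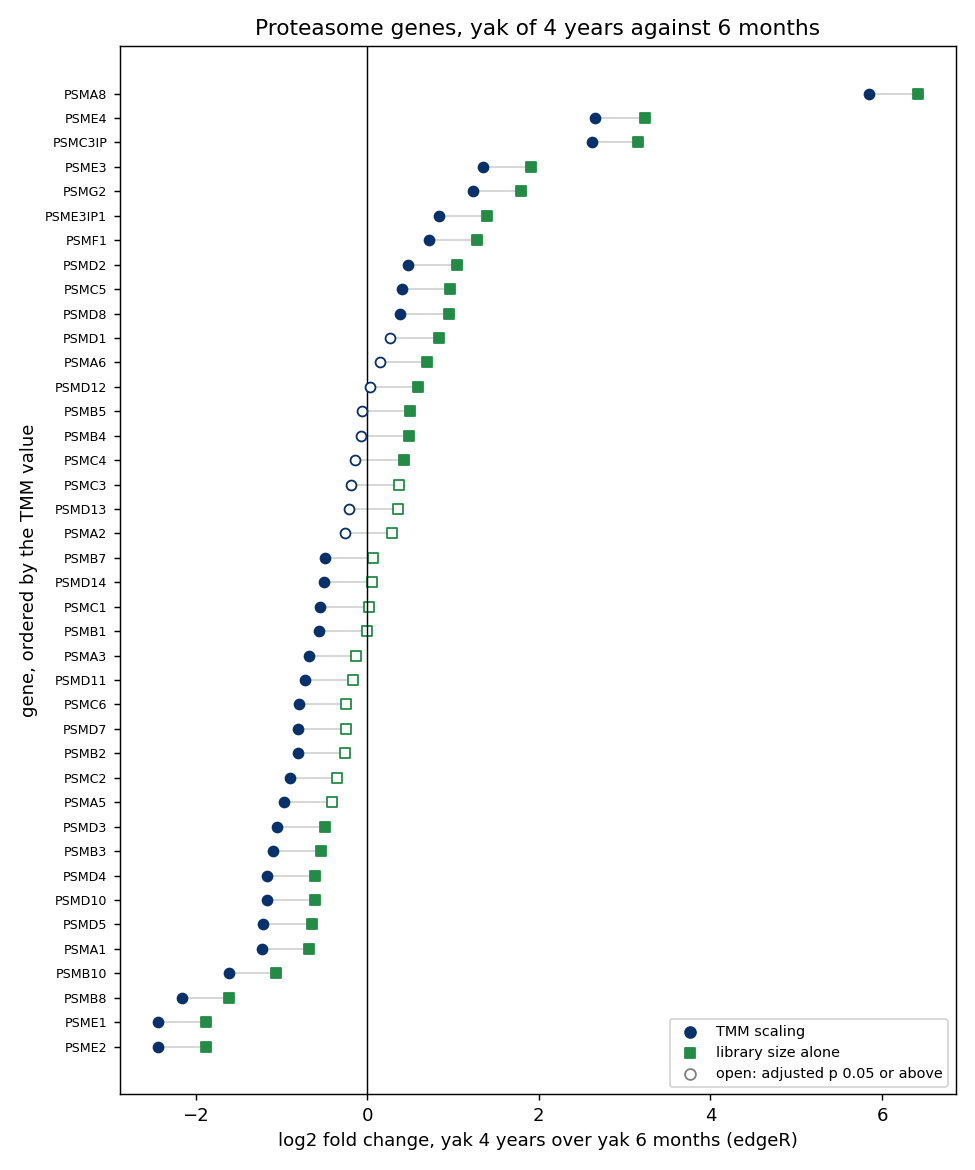
Log2 fold change of the 40 tested proteasome genes in yak of 4 years over yak of 6 months (x axis, edgeR, 3 libraries per group), with TMM scaling (circles) and with library size alone (squares), ordered on the y axis by the TMM value. Filled symbols had an adjusted p below 0.05. Each gene shifts to the right with library size alone, while PSMA8 (5.85 and 6.41) and PSME2 (-2.44 and -1.88) stay far from 0. PSMB7, PSMD14, PSMC1, PSMB4, PSMB5, PSMC4, PSMD13, PSMA2 and PSMC3 cross 0. Of these, PSMB4, PSMB5 and PSMC4 are then called higher.

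No member was called at 18 months against either neighbouring age. Against 6 months the call rule found 0.0672% of all genes, and 4 of the 40 members had an unadjusted p below 0.05, as did 25.8% of all genes. Against 4 years it found 0.0371%, and 23 of the 40 members had an unadjusted p below 0.05, as did 35.4% of all genes, and the lowest adjusted p of a member was 0.0691 by edgeR's quasi-likelihood test. The highest values at 18 months against 6 months were those of PSMA8 (4.30), PSMC3IP (1.45) and PSME4 (1.24), and the lowest those of PSMB8 (-0.70), PSME1 (-0.68) and PSME2 (-0.60). Without replicate 2 of 18 months these values were 2.198, 0.81 and 0.35, and -0.44, -0.46 and -0.35, and still none was called. At 4 years against 18 months the highest were again PSMA8 (1.63), PSME4 (1.47) and PSMC3IP (1.23), and the lowest PSME2 (-1.82), PSME1 (-1.73) and PSMB8 (-1.44), none of them called. Without replicate 2 of 18 months these values were 3.70, 2.36 and 1.86, and -2.04, -1.93 and -1.67, and each was called. DESeq2 called 1 member higher in the first comparison, against 7.97% of all genes, and 0 lower, against 6.46%. In the second it called 7 higher at 4 years, against 18.7%, and 17 lower, against 21.5%. With all 12 libraries in 1 fit, 3 members were higher and 0 lower in the first comparison, against 12.8% and 7.06%, and 5 were higher and 20 lower in the second, against 10.2% and 21.6%. Without replicate 2 of 18 months, 8 members were higher at 4 years, against 30.2% of all genes, and 20 were lower, against 26.0%.

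PSMA8, the alpha subunit of the meiotic proteasome, had the highest log2 fold change of the 40 tested members in each comparison between ages of yak and the lowest in cattle–yak against yak of 4 years. Its FPKM was 1.09, 1.65 and 0.58 in replicates 1 to 3 of 6 months, and 3.06, 76.3 and 10.1 at 18 months. At 4 years it was 96.5, 87.05 and 106, and in cattle–yak 26.25, 11.5 and 12.5. All 3 yak of 4 years lay above every other library, cattle–yak lay between them and the yak of 6 months, and at 18 months replicate 2 stood close to the level of 4 years while the others stayed low. The ratio of mean FPKM was 87.1 for 4 years over 6 months, with a log2 fold change of 5.85 ± 0.32 (SE, n = 3 per group, edgeR adjusted p = 6.18e-07). Cattle–yak had 5.76 times less than yak of 4 years, with a log2 fold change of -2.50 ± 0.33 (edgeR adjusted p = 0.000233). Against 18 months, the log2 fold change at 4 years was 1.63 ± 1.03 (edgeR adjusted p = 0.268) with all libraries and 3.70 ± 0.43 (edgeR adjusted p = 0.000469) without replicate 2.

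PSMA7, whose place in the alpha ring PSMA8 takes, followed another course. Its FPKM was 170.0, 214 and 205 at 6 months, and 205, 144 and 211 at 18 months. At 4 years it was 84.2, 84.6 and 89.3, and in cattle–yak 185, 193 and 187. The yak of 4 years were thus the lowest libraries for PSMA7 and the highest for PSMA8, and cattle–yak overlapped with the yak of 6 months for PSMA7. The log2 fold change of PSMA7 was -1.79 ± 0.13 at 4 years against 6 months (edgeR adjusted p = 3.70e-06) and 1.17 ± 0.10 in cattle–yak against yak of 4 years (edgeR adjusted p = 2.59e-05). A second row described as a PSMA7 isoform (ENSBGRG00000009155) lay between 0.47 and 3.92 FPKM and was not added, and reads shared between such copies may be split between the rows.

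As a share of the pair's FPKM, PSMA8 made up 0.637%, 0.764% and 0.282% at 6 months. The share was 1.47%, 34.6% and 4.58% at 18 months, 53.4%, 50.7% and 54.2% at 4 years, and 12.4%, 5.62% and 6.30% in cattle–yak. PSMA8 and PSMA7 thus stood at about equal RF levels per length at 4 years and in no other group. The mean log2 ratio of PSMA8 to PSMA7 differed by 7.74 at 4 years from 6 months and by -3.76 in cattle–yak from yak of 4 years. In each of these comparisons, and in those of 18 months with 6 months (3.79) and of 4 years with 18 months (3.95), the groups did not overlap and the exact two-sided permutation p was 0.1, the smallest that 3 libraries against 3 allow, or 0.133 adjusted over the 16 ratio comparisons made. The differences that involve 18 months rest in part on replicate 2, without which they were 2.36 and 5.38 (exact permutation p = 0.2 for each), while leaving out any 1 library gave 2.36 to 4.93 and 2.81 to 5.38.

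**Figure D3:**
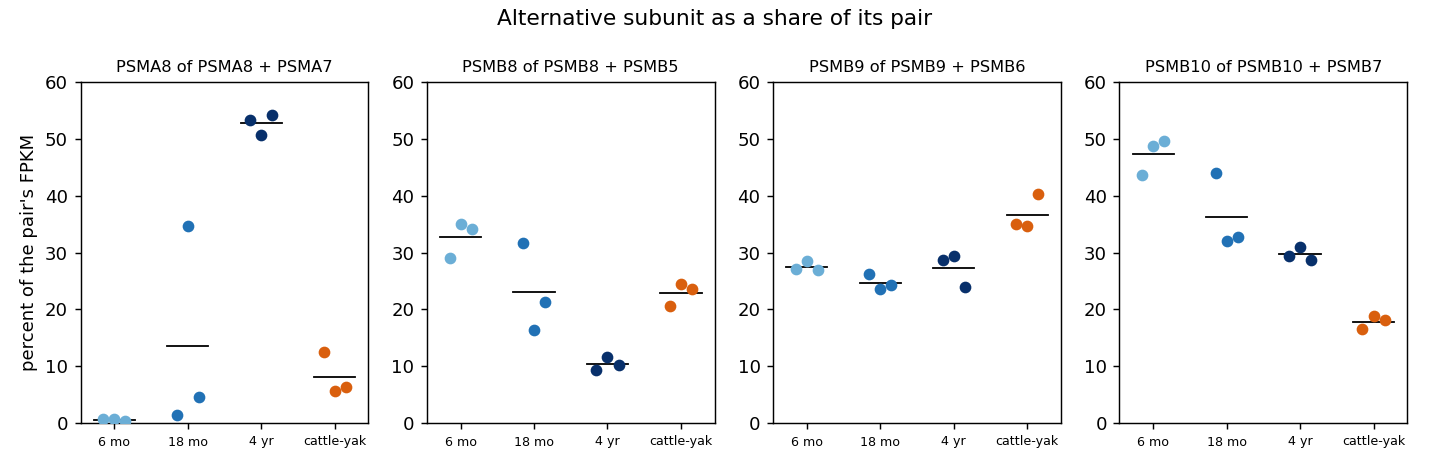
Share of the alternative subunit in the FPKM of its pair (y axis, percent) by group (x axis), with 1 point per library and a line at the mean of 3 libraries. PSMA8 exceeds 50% in all 3 yak of 4 years and stays at 12.4% or less in cattle–yak. PSMB8 falls to between 9.23% and 11.6% at 4 years, PSMB9 keeps a similar share over the ages of yak, and PSMB10 is lowest in cattle–yak.

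The markers of spermatocytes, in which PSMA8 is known to be made, moved with it in part. Their summed level was 142 to 202 FPKM at 6 months, of which HORMAD1 alone gave 123 to 183, then 227 to 607 at 18 months, 686 to 739.9 at 4 years and 469 to 765 in cattle–yak. In cattle–yak against yak of 4 years, 5 of the 10 markers tested were lower and 1 was higher, against 34.2% and 31.5% of all genes. Their median was -0.89 on the log2 scale. SYCP3, a protein of the synaptonemal complex, was higher at 0.70 ± 0.24 (edgeR adjusted p = 0.0303), whereas MSH4, a meiotic crossover factor, was lower at -1.91 ± 0.24 (edgeR adjusted p = 0.000174). All 6 round spermatid and all 5 elongating spermatid markers tested were lower in cattle–yak. The part that the number of germ cells had in the levels of PSMA8 was not tested.

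**Figure D4:**
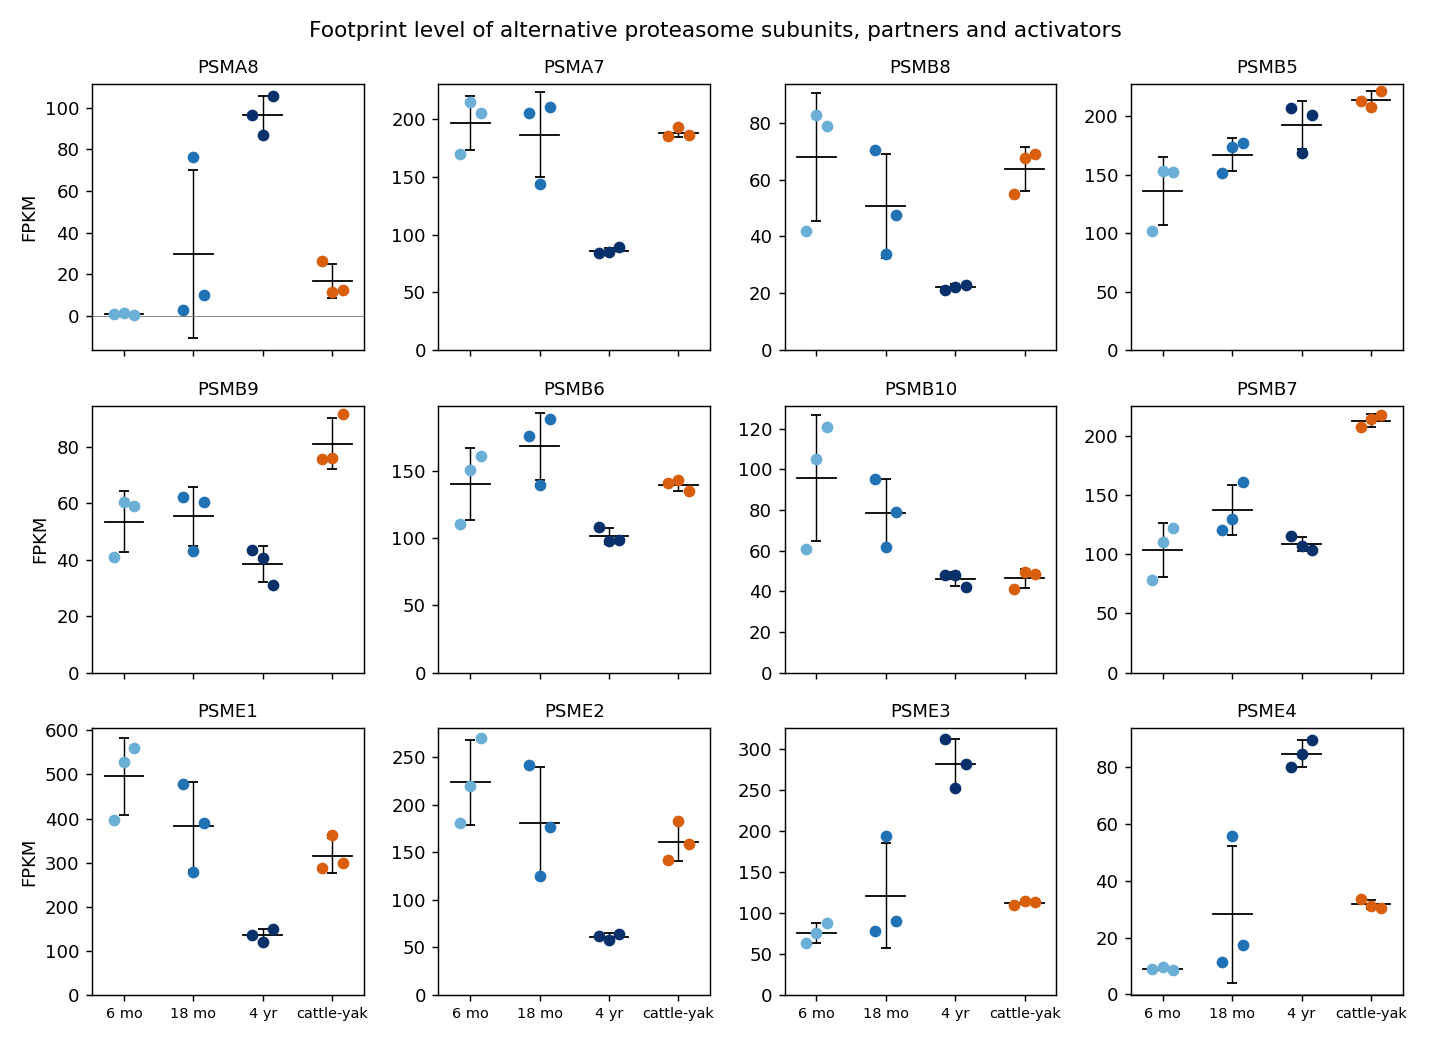
FPKM (y axes, linear, a separate scale for each gene) of PSMA8, the immune subunits PSMB8, PSMB9 and PSMB10, the constitutive partner of each, and the activators PSME1 to PSME4 in the 4 groups (x axis). Points are libraries, lines are means and bars are 1 SD over 3 libraries, and an SD at 18 months can reach below 0 because replicate 2 stands apart. PSMA8, PSME3 and PSME4 are highest at 4 years, where PSMA7, PSMB8, PSME1 and PSME2 are lowest.

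Among the immune subunits, PSMB8 and PSMB9 stood above the yak of 4 years in cattle–yak, and PSMB10 did not pass the test. PSMB8, which takes the place of PSMB5, had an FPKM of 41.9, 82.6 and 78.8 at 6 months and 70.4, 33.9 and 47.7 at 18 months. It had 21.0, 22.3 and 23.0 at 4 years, and 55.0, 67.5 and 68.85 in cattle–yak. The yak of 4 years lay below every other library and cattle–yak fell within the range of the yak of 6 months. PSMB8 fell by 2.16 ± 0.21 on the log2 scale from 6 months to 4 years (edgeR adjusted p = 2.20e-05) and was 1.54 ± 0.13 higher in cattle–yak (edgeR adjusted p = 1.90e-05), the largest increase of a member in that comparison.

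PSMB9, the immune counterpart of PSMB6, had 40.9, 60.3 and 59.2 FPKM at 6 months and 62.4, 43.2 and 60.5 FPKM at 18 months. It had 43.4, 40.7 and 31.1 FPKM at 4 years, and 75.8, 76.2 and 91.5 FPKM in cattle–yak. Cattle–yak thus held the highest PSMB9 of all libraries, while the yak of 4 years overlapped with those of 6 months. The row was named from its description and is longer than that of PSMB6. In replicate 1 of 6 months its ratio of counts to FPKM was 1.54 times the library median, against 0.550 for PSMB6. Whether the row holds sequence other than PSMB9 was not tested, so its values may not be those of PSMB9 alone. Its log2 fold change was -1.03 ± 0.18 at 4 years against 6 months (edgeR adjusted p = 0.000804), or -0.48 with library size alone (edgeR adjusted p = 0.0600), and 1.08 ± 0.16 in cattle–yak against yak of 4 years (edgeR adjusted p = 0.000449).

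PSMB10, the immune counterpart of PSMB7, had 60.95, 105 and 121 FPKM at 6 months and 95.1, 61.5 and 78.9 FPKM at 18 months. It had 48.1, 47.9 and 41.9 FPKM at 4 years, and 41.2, 49.6 and 48.4 FPKM in cattle–yak. The 4-year groups overlapped for PSMB10, and both lay below all yak of 6 months. The log2 fold change was -1.61 ± 0.21 at 4 years against 6 months (edgeR adjusted p = 0.000125) and 0.02 ± 0.13 in cattle–yak against yak of 4 years (edgeR adjusted p = 0.898).

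The constitutive catalytic partners followed courses of their own. PSMB5, the chymotrypsin-like site, had 102, 153.5 and 152 FPKM at 6 months, 151, 174 and 177 at 18 months, 207, 169 and 201 at 4 years, and 213, 208 and 222 in cattle–yak. It passed the test in neither comparison, at -0.05 ± 0.17 for age (edgeR adjusted p = 0.779) and 0.16 ± 0.12 for cattle–yak (edgeR adjusted p = 0.269), although with library size alone the age value was 0.50 (edgeR adjusted p = 0.0438). PSMB6, the caspase-like site, had 110.3, 151 and 161 FPKM at 6 months, 176, 139.9 and 189 at 18 months, 108, 97.8 and 98.6 at 4 years, and 141, 143 and 135 in cattle–yak. It was lowest at 4 years, at -1.03 ± 0.15 against 6 months (edgeR adjusted p = 0.00025), or -0.47 with library size alone, and 0.47 ± 0.11 higher in cattle–yak (edgeR adjusted p = 0.00615). PSMB7, the trypsin-like site, had 78.3, 110.5 and 123 FPKM at 6 months, 121, 130.1 and 162 at 18 months, 115, 107 and 104 at 4 years, and 207, 214 and 218 in cattle–yak. Cattle–yak stood above all other libraries for PSMB7, with a log2 fold change of 0.98 ± 0.11 over yak of 4 years (edgeR adjusted p = 9.34e-05). PSMB7 was called lower over age at -0.49 ± 0.16 (edgeR adjusted p = 0.0195), but lay at 0.07 with library size alone (edgeR adjusted p = 0.768).

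The 3 immune pairs therefore differed in their balance. PSMB8 made up 29.1%, 35.0% and 34.1% of its pair with PSMB5 at 6 months, 31.8%, 16.3% and 21.2% at 18 months, 9.23%, 11.6% and 10.3% at 4 years, and 20.5%, 24.5% and 23.7% in cattle–yak. PSMB10 made up 43.8%, 48.8% and 49.7% of its pair with PSMB7 at 6 months, 44.0%, 32.1% and 32.8% at 18 months, 29.4%, 31.0% and 28.7% at 4 years, and 16.6%, 18.8% and 18.2% in cattle–yak. PSMB9 kept 23.6% to 29.4% of its pair with PSMB6 in all yak and reached 35.0%, 34.7% and 40.4% in cattle–yak. These shares carry the uncertainty of the long PSMB9 row. In cattle–yak against yak of 4 years the log2 ratio thus differed by 1.36 for PSMB8, 0.63 for PSMB9 and -0.96 for PSMB10, each without overlap of the groups and each at an exact permutation p of 0.1, the smallest possible. Between 6 months and 4 years the ratio of PSMB9 to PSMB6 differed by -0.02 (exact permutation p = 1), and its sign turned when replicate 2 of 6 months or replicate 3 of 4 years was left out. In the RefSeq annotation of another yak assembly, PSMB8, TAP1 and PSMB9 are neighbours with TAP2 beside them, as in the MHC class II region of other mammals, while PSMB10 lies elsewhere between CTRL and LCAT.

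Genes of antigen processing and of the interferon response, from a list of 10 of which 7 were found, were called in the direction of PSMB8 wherever they passed the test in these comparisons. In cattle–yak 4 of 7 were higher and 0 were lower, against 31.5% and 34.2% of all genes tested. The higher genes were led by the interferon-induced transcription factor IRF1 at 2.64 (edgeR adjusted p = 2.21e-06), and included TAPBP at 0.92 and TAP1 at 0.88. IRF1 had 24.2, 27.5 and 19.9 FPKM in yak of 4 years and 132, 155 and 143 FPKM in cattle–yak. From 6 months to 4 years 5 of 7 were lower, against 34.8% of all genes tested. They were led by ERAP1, which trims peptides for MHC class I, at -3.18. The list's median log2 fold change was 0.88 in cattle–yak and -1.89 over age, beside -0.002 and 0.08 over all genes.

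Few markers of leukocytes, which use the immunoproteasome constitutively, were higher in cattle–yak. Of 8 macrophage markers 1 was higher and 2 were lower there, and of 4 lymphocyte markers tested 0 were higher and 1 was lower. Among all genes tested, 31.5% were higher and 34.2% lower. The summed macrophage level was 323 to 480.2 FPKM in yak of 4 years and 197 to 264 FPKM in cattle–yak, and without AIF1, left out after its values had been seen, it was 136 to 305 and 183 to 253 FPKM, with overlap. AIF1 was at -3.90 on the log2 scale in cattle–yak. It had 17.0, 37.8 and 41.4 FPKM at 6 months and 24.0, 124.5 and 35.6 at 18 months. It had 220, 175 and 187 at 4 years, and 13.5, 15.0 and 10.8 in cattle–yak. At 18 months AIF1 was thus highest in replicate 2, the library with spermatid markers, and the cells it came from were not tested. C1QC, a part of complement, was the macrophage marker that was higher in cattle–yak, at 1.03. The summed lymphocyte level was 26.6 to 29.5 and 17.8 to 32.4 FPKM. PTPRC (CD45), found on all leukocytes, had 9.89, 9.96 and 7.73 FPKM in yak of 4 years and 7.47, 12.5 and 10.75 FPKM in cattle–yak. Over age, most leukocyte markers fell in the comparison in which the immune subunits fell. At 4 years 5 of 8 macrophage and 3 of 4 lymphocyte markers were lower than at 6 months, against 34.8% of all genes. There, 2 macrophage markers were higher, against 37.7% of all genes. With library size alone 4 macrophage markers were lower and 3 higher, and 3 lymphocyte markers were lower and 1 higher. Among all genes, 21.5% were then lower and 49.8% higher. PTPRC had 22.0, 32.9 and 52.4 FPKM at 6 months. The part of these cells in the immune subunits was not tested.

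The activators split into a pair that fell and a pair that rose over age. PSME1, the alpha subunit of PA28, which opens the core for short peptides and responds to interferon, had 397, 528 and 560.4 FPKM at 6 months and 478, 279 and 391 at 18 months. It had 137, 119 and 149 at 4 years, and 288, 362 and 298 in cattle–yak. All yak of 4 years lay below all other libraries. PSME1 fell by 2.44 ± 0.17 on the log2 scale from 6 months to 4 years (edgeR adjusted p = 2.75e-06) and was 1.24 ± 0.14 higher in cattle–yak (edgeR adjusted p = 0.000107).

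PSME2, which forms a heteroheptamer with PSME1, had 181, 219 and 270.1 FPKM at 6 months and 242, 125 and 177 at 18 months. It had 62.35, 57.5 and 64.3 at 4 years, and 142, 183 and 159 in cattle–yak. The order of the groups was that of PSME1. PSME2 had the lowest fold change of any member over age, -2.44 ± 0.16 (edgeR adjusted p = 1.82e-06), and 1.45 ± 0.13 in cattle–yak (edgeR adjusted p = 2.64e-05). These genes lie on both sides of EMC9 in the RefSeq annotation, with IRF9 nearby.

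PSME3 (PA28 gamma), the nuclear homologue that forms rings of its own, had 63.0, 75.85 and 87.7 FPKM at 6 months and 78.0, 194 and 90.3 at 18 months. It had 312, 252 and 282 at 4 years, and 110.1, 114 and 113 in cattle–yak. The yak of 4 years stood above all other libraries, and replicate 2 of 18 months came next. PSME3 was 1.35 ± 0.16 higher on the log2 scale at 4 years than at 6 months (edgeR adjusted p = 6.23e-05) and -1.35 ± 0.13 in cattle–yak against yak of 4 years (edgeR adjusted p = 3.76e-05).

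PSME4 had 8.80, 9.52 and 8.67 FPKM at 6 months and 11.25, 55.8 and 17.5 at 18 months. It had 80.0, 84.55 and 89.4 at 4 years, and 33.5, 30.95 and 30.5 in cattle–yak. Cattle–yak lay between the yak of 6 months and those of 4 years without overlap, and replicate 2 of 18 months lay between cattle–yak and yak of 4 years. The ratio of mean FPKM was 9.41 for 4 years over 6 months, with a log2 fold change of 2.66 ± 0.15 (edgeR adjusted p = 7.72e-07), and 2.67 for yak of 4 years over cattle–yak, with a log2 fold change of -1.41 ± 0.12 (edgeR adjusted p = 1.73e-05). Without replicate 2, PSME4 at 4 years was 2.36 ± 0.22 above 18 months on the log2 scale (edgeR adjusted p = 0.000148), beside 1.47 ± 0.54 (edgeR adjusted p = 0.119) with it.

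As a share of PSME4 and PSME1 together, a ratio chosen after the levels had been seen and given as a description, PSME4 made up 1.52% to 2.17% at 6 months and 36.9%, 41.6% and 37.5% at 4 years. At 18 months the share was 2.30%, 16.6% and 4.29%, and in cattle–yak it was 10.4%, 7.88% and 9.29%. The share of PSME3 in its sum with PSME1 was 12.6% to 13.7% at 6 months, 14.04%, 41.0% and 18.8% at 18 months, 65.4% to 69.5% at 4 years and 24.0% to 27.7% in cattle–yak. PSME3 exceeded PSME1 in the yak of 4 years and in no other library.

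The constitutive core subunits of the barrel had the same highest and the same lowest member in every library. Among the 11 members, the median level was 102 to 154 FPKM at 6 months, 145 to 177 at 18 months, 140.3 to 206 at 4 years and 222 to 256 in cattle–yak. PSMB4 was the highest and PSMA1 the lowest of the 11 in all 12 libraries, with PSMB4 at 279 to 517 FPKM and PSMA1 at 53.1 to 116 FPKM. In cattle–yak against yak of 4 years 8 of the 11 were higher and 0 were lower, against 31.5% and 34.2% of all genes tested.

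Of the constitutive alpha subunits, 4 of 5 were higher in cattle–yak, against 31.5% of all genes tested. The median of the 5 was 0.73 on the log2 scale. PSMA5 changed most, from 93.05, 96.4 and 102 FPKM in yak of 4 years to 256, 236 and 218 FPKM in cattle–yak, at 1.27 ± 0.12 on the log2 scale (edgeR adjusted p = 4.17e-05). PSMA1 at 0.85, PSMA2 at 0.73 and PSMA3 at 0.54 followed. A second row described as a PSMA2 isoform (ENSBGRG00000000959) held 19.9 to 50.3 FPKM, so that reads may be split between the rows and the value of PSMA2 is uncertain. PSMA6 did not pass, with 206, 140.3 and 173 FPKM in yak of 4 years and 155, 185 and 158 FPKM in cattle–yak. Over age, PSMA1 fell by 1.22 ± 0.20 (edgeR adjusted p = 0.000495) and was called lower under each setting, while the calls of PSMA5 at -0.97 and PSMA3 at -0.68 were lost with library size alone, where they lay at -0.41 and -0.13.

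Of the non-catalytic beta subunits, PSMB1, PSMB2 and PSMB3 were higher in cattle–yak at 0.42, 0.86 and 0.76, and PSMB4 was at -0.10 ± 0.11 (edgeR adjusted p = 0.449). PSMB3, which fell by 1.10 ± 0.16 over age (edgeR adjusted p = 0.000223), had 248, 305 and 367 FPKM at 6 months, 216, 198 and 221 FPKM at 4 years and 335, 369 and 363 FPKM in cattle–yak. No PSMB3 value of 4 years reached the range of either other group. PSMB4 had 517, 496 and 504 FPKM at 4 years and 477, 457 and 473 FPKM in cattle–yak. With TMM scaling PSMB2 at -0.81 and PSMB1 at -0.56 were also called lower over age. Both lost the call with library size alone, at -0.26 and -0.002.

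In the regulatory particle, the ring of ATPases that unfolds the substrate had a median of 0.66 in cattle–yak. Of the 6 ATPases, 4 were higher and 0 lower, against 31.5% and 34.2% of all genes tested. PSMC6 at 1.06 ± 0.14 (edgeR adjusted p = 0.000249), PSMC3 at 0.79, PSMC1 at 0.74 and PSMC2 at 0.59 passed. PSMC5 at 0.28 ± 0.11 (edgeR adjusted p = 0.0524) and PSMC4 at -0.12 ± 0.12 (edgeR adjusted p = 0.421) did not, although PSMC5 passed when any 1 of the yak of 4 years was left out, at edgeR adjusted p from 0.0325 to 0.0476. Over age, PSMC2 at -0.90, PSMC6 at -0.80 and PSMC1 at -0.54 were called lower with TMM scaling and lost the call with library size alone, at -0.35, -0.24 and 0.02. PSMC5 was the single ATPase called higher at 4 years, at 0.40 ± 0.13 (edgeR adjusted p = 0.0232), and it lost that call without replicate 2 of 6 months (edgeR adjusted p = 0.0748), without replicate 1 of 4 years (edgeR adjusted p = 0.0746) or without replicate 3 of 4 years (edgeR adjusted p = 0.0665).

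The other subunits of the regulatory particle divided by direction. PSMD4, a receptor for ubiquitin chains, had 177, 169 and 173 FPKM in yak of 4 years and 419.9, 407 and 395 FPKM in cattle–yak. PSMD14, the enzyme that cuts ubiquitin off the substrate, had 78.45, 67.3 and 74.9 FPKM and then 173, 169.5 and 151 FPKM. PSMD3 had 51.8, 47.2 and 48.5 FPKM and then 102, 107 and 101 FPKM. Cattle–yak stood above yak of 4 years for all 3 without overlap, at log2 fold changes of 1.25 ± 0.11 (edgeR adjusted p = 2.80e-05), 1.17 ± 0.13 (edgeR adjusted p = 7.835e-05) and 1.08 ± 0.11 (edgeR adjusted p = 5.545e-05). PSMD11 at 0.91 and PSMD7 at 0.52 were also called higher. With TMM scaling these 5 were called lower over age. PSMD4 was at -1.16, PSMD3 at -1.05, PSMD7 at -0.80, PSMD11 at -0.72 and PSMD14 at -0.50. With library size alone PSMD4 at -0.61 and PSMD3 at -0.49 kept the call. PSMD7 at -0.24, PSMD11 at -0.16 and PSMD14 at 0.05 lost it.

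PSMD2 and PSMD8 were lower in cattle–yak. PSMD2, the large scaffold that docks ubiquitin-like carriers, had 217, 236 and 272 FPKM in yak of 4 years and 151, 152 and 165 FPKM in cattle–yak. PSMD8 had 287, 275 and 322 FPKM and then 179, 180.2 and 177 FPKM. Both were lower in cattle–yak in every animal, at -0.62 ± 0.12 (edgeR adjusted p = 0.00218) and -0.71 ± 0.11 (edgeR adjusted p = 0.000648). At 6 months PSMD2 had 107, 114 and 128 FPKM and PSMD8 had 128, 148 and 183 FPKM, below all yak of 4 years. Their calls over age, at 0.48 ± 0.16 (edgeR adjusted p = 0.0240) and 0.39 ± 0.16 (edgeR adjusted p = 0.0499), changed with the fit. With library size alone they were stronger, at 1.05 (edgeR adjusted p = 0.00046) and 0.95 (edgeR adjusted p = 0.00107). With TMM scaling, that of PSMD2 was lost without replicate 2 of 6 months (edgeR adjusted p = 0.0893) or replicate 3 of 4 years (edgeR adjusted p = 0.0861), and that of PSMD8 was lost without any 1 library other than replicate 3 of 6 months, at edgeR adjusted p from 0.0620 to 0.156. PSMD1 at 0.01, PSMD12 at 0.23 and PSMD13 at -0.15 did not pass in cattle–yak.

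**Figure D5:**
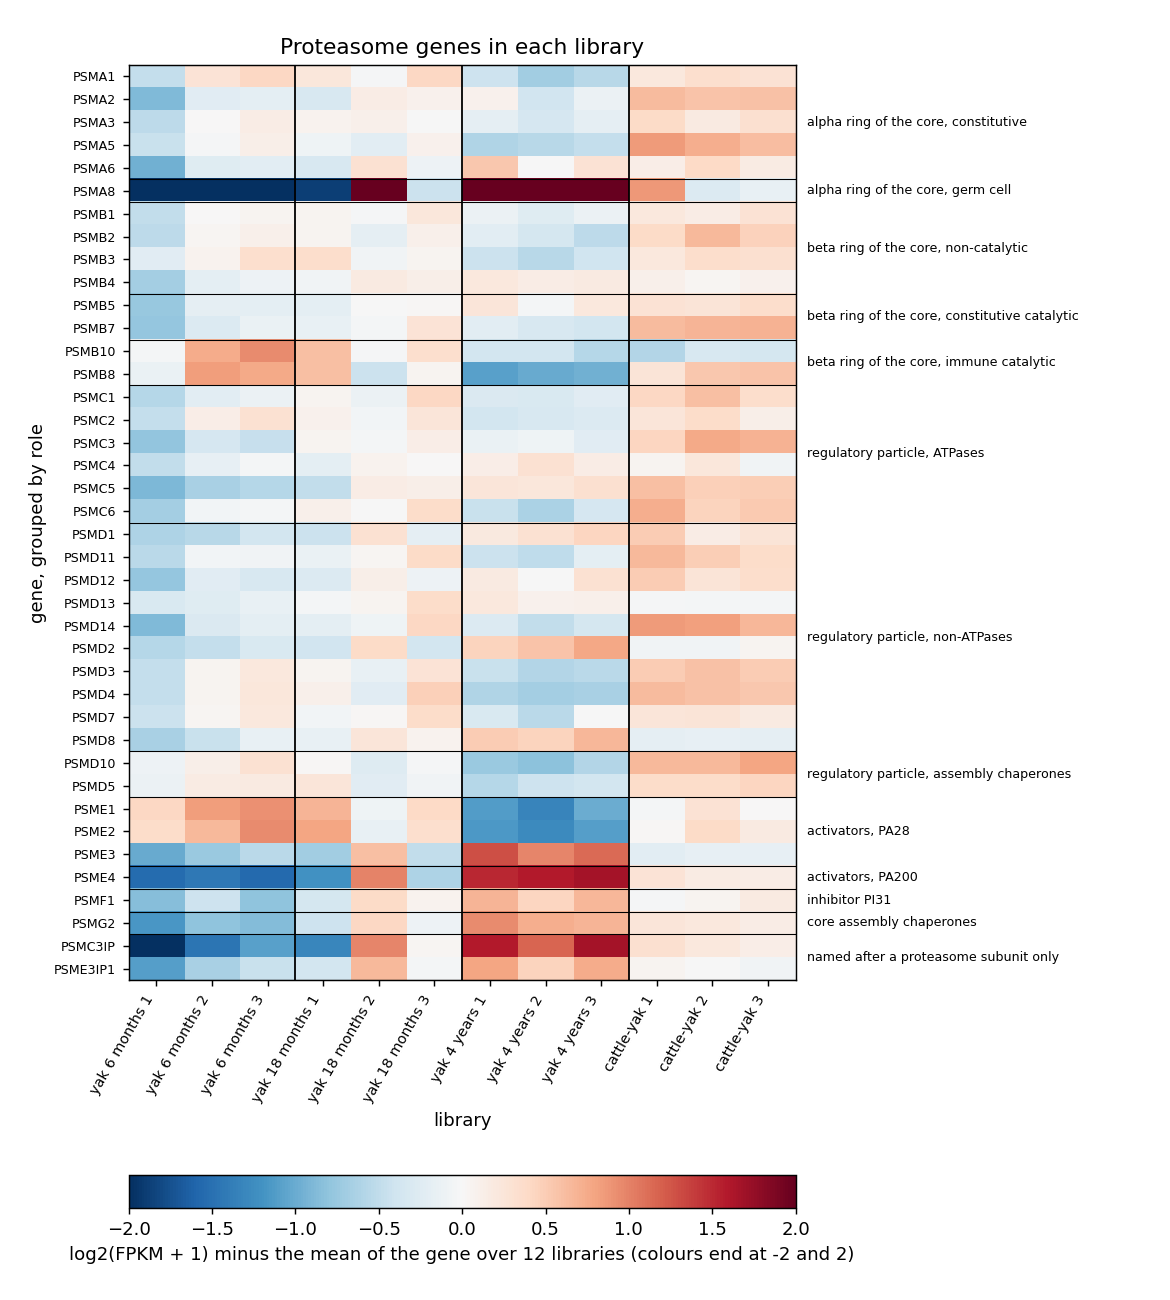
The 40 tested proteasome genes (y axis, by role) in the 12 libraries (x axis), coloured by log2(FPKM + 1) minus the mean of the gene over the 12 libraries, with colours ending at -2 and 2. PSMA8, PSME3, PSME4 and PSMC3IP are red in yak of 4 years and in replicate 2 of 18 months, PSMB8, PSME1 and PSME2 are blue at 4 years, and most core and regulatory subunits are light red in cattle–yak.

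Among the genes that assemble or restrain the complex, the chaperones of the regulatory particle were higher in cattle–yak and lower at 4 years than at 6 months. PSMD10 (gankyrin) had 73.6, 86.25 and 97.9 FPKM at 6 months, 47.2, 44.3 and 52.3 at 4 years, and 124, 125 and 138 in cattle–yak, and PSMD5 had 36.0, 43.6 and 44.1, then 25.95, 29.1 and 30.1, and then 50.7, 50.7 and 52.9. Both were lowest at 4 years without overlap. PSMD10 fell by 1.17 ± 0.14 over age (edgeR adjusted p = 8.09e-05) and was 1.26 ± 0.12 higher in cattle–yak (edgeR adjusted p = 3.56e-05), and PSMD5 moved by -1.21 and 0.91. Named from their descriptions, the rows of SEM1, a small subunit of the particle, were at -1.33 (edgeR adjusted p = 0.000706) and 0.27 (edgeR adjusted p = 0.184) over age and passed in neither case in cattle–yak. With library size alone they were at -0.77 (edgeR adjusted p = 0.0127) and 0.83 (edgeR adjusted p = 0.00268) over age, so that the second row was then called higher. The chaperone PSMD9 fell by 1.40 over age, or by 0.83 with library size alone, and was at 0.01 ± 0.14 in cattle–yak (edgeR adjusted p = 0.966).

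The chaperone PSMG2 and the inhibitor PSMF1 rose over age and were lower in cattle–yak. PSMG2, which helps to build the alpha ring, had 10.6, 13.9 and 13.3 FPKM at 6 months, 49.0, 41.8 and 40.6 at 4 years, and 29.8, 29.1 and 27.7 in cattle–yak. PSMF1 (PI31) had 54.2, 74.1 and 56.5 FPKM, then 159, 134 and 157, and then 97.1, 103 and 113. For both genes cattle–yak lay between the yak of 6 months and those of 4 years with no overlap, and overlapped with the yak of 18 months. PSMG2 was 1.24 ± 0.16 higher at 4 years (edgeR adjusted p = 0.000128) and -0.59 ± 0.14 in cattle–yak (edgeR adjusted p = 0.00567), and PSMF1 was at 0.72 and -0.52. Of its relatives named from descriptions, PSMG3 was 0.83 higher over age (edgeR adjusted p = 0.00377), or 1.39 with library size alone, and at 0.14 in cattle–yak (edgeR adjusted p = 0.508), and PSMG4 was at 0.44 over age (edgeR adjusted p = 0.124), or 1.03 with library size alone (edgeR adjusted p = 0.00187), and 0.55 higher in cattle–yak (edgeR adjusted p = 0.00495).

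PSMC3IP and PSME3IP1 matched the symbol rule and are no subunits. PSMC3IP (HOP2), a partner of the recombinase DMC1 in meiosis, had 4.31, 8.08 and 10.7 FPKM at 6 months and 9.10, 47.9 and 24.7 at 18 months. It had 74.3, 55.0 and 77.95 at 4 years, and 30.1, 27.9 and 26.4 in cattle–yak. It was high where PSMA8 was high, at 2.61 ± 0.28 over age (edgeR adjusted p = 4.00e-05) and -1.28 ± 0.17 in cattle–yak (edgeR adjusted p = 0.000247). PSME3IP1, which binds PSME3 in the nucleus, was at 0.84 and -0.68, both called.

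Partners of the proteasome outside the symbol rule were counted from a list of 21 genes, of which 19 were found. In cattle–yak 12 of 19 were higher and 3 were lower, against 31.5% and 34.2% of all genes tested. Their median was 0.67 on the log2 scale. Over age 3 of 18 were higher and 10 were lower, against 37.7% and 34.8% of all genes, with a median of -0.45. With library size alone 6 were higher and 6 lower, against 49.8% and 21.5%, with a median of 0.11. The ubiquitin shuttle UBQLN2 changed most in cattle–yak, from 3.41, 4.07 and 2.77 FPKM in yak of 4 years to 13.1, 10.5 and 12.9 FPKM, at 1.84 ± 0.20 (edgeR adjusted p = 7.58e-05). In all, 7 of the 19 were DTGs that were higher, against 17.1% of all genes. NFE2L2 at 1.69 and NFE2L1 at 0.66, transcription factors known to raise proteasome genes under stress, were also higher. So were VCP at 1.14, which extracts ubiquitin-tagged proteins, and the deubiquitinase USP14 at 1.29. UBQLN4 went from 10.8, 13.4 and 8.59 FPKM in yak of 4 years to 27.9, 23.5 and 30.5 in cattle–yak. RAD23B went from 79.1, 92.1 and 101 to 222, 189 and 205, and ZFAND5 from 105, 104 and 111 to 231, 251 and 236. The part of NFE2L1 and NFE2L2 in the proteasome genes was not tested. The ligase UBE3C at -0.49, AKIRIN2 at -0.40 and the ubiquitin receptor ADRM1 at -0.39 were the 3 lower genes. UBE3C and ADRM1 were called higher over age at 1.27 and 0.50, the signs of PSME3 and PSMD2.

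Ubiquitin and its activating enzymes, with 5 of 9 genes found, included genes of either direction. UBA1, the general activating enzyme, had 39.1, 56.6 and 59.2 FPKM at 6 months, 36.9, 36.7 and 33.6 at 4 years, and 76.7, 62.5 and 66.9 in cattle–yak. UBA6, its alternative form, had 9.78, 11.4 and 12.6 FPKM, then 33.8, 38.3 and 36.4, and then 25.55, 20.5 and 24.05. UBA1 thus fell over age and was higher in cattle–yak, at -1.09 (edgeR adjusted p = 0.000242) and 0.95 (edgeR adjusted p = 0.000309), and UBA6 did the reverse, at 1.12 (edgeR adjusted p = 6.55e-05) and -0.62 (edgeR adjusted p = 0.00275). The ubiquitin gene UBB was 0.61 higher in cattle–yak (edgeR adjusted p = 0.0203).

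Markers of Sertoli, Leydig and peritubular myoid cells moved with the general subunits in cattle–yak, and those of endothelial cells and macrophages went both ways. Of the markers tested there, 4 of 5 for Sertoli cells, both for Leydig cells and all 5 for peritubular myoid cells were higher than in yak of 4 years, and 0 were lower, with medians of 1.47, 2.64 and 2.18. Their summed levels were 114 to 157, 58.8 to 188 and 211 to 219 FPKM in yak of 4 years, and 421 to 464, 580.2 to 1041 and 780.2 to 1291 FPKM in cattle–yak. Of 6 endothelial markers 2 were higher and 2 were lower, with VWF lowest at -2.39. Of 6 spermatogonial markers 4 were higher. Among all genes tested in this comparison, 31.5% were higher and 34.2% lower. The part of the mixture of cells in the levels of the constitutive subunits was not tested.

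Over age, 4 years against 6 months, all 5 Sertoli cell and both Leydig cell markers were lower, with medians of -1.88 and -4.60, and so were 5 of 6 endothelial markers, while VWF was higher. Of the 5 peritubular myoid markers 3 were lower and 2 were higher, ACTA2 at 0.73 and MYH11 at 0.94. Among all genes tested, 34.8% were lower and 37.7% higher, or 21.5% and 49.8% with library size alone. With library size alone 4 of the 5 Sertoli markers, both Leydig markers and 5 of 6 endothelial markers were lower, and of the myoid markers 2 were lower and 2 higher. The Sertoli markers summed to 291 to 334 FPKM at 6 months and the Leydig markers to 1585 to 2506 FPKM. The Sertoli, Leydig and most endothelial markers fell together with PSMB8, PSME1 and PSME2 in the same libraries, and the part of these cells was not tested.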

How the data were processed

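Ribo-seq libraries of testis from 12 animals, 3 in each of 4 groups taken from the labels, were analysed. The authors cleaned the reads with fastp, took out rRNA (Bowtie2) and further small RNA (BLAST), kept reads of 20 to 40 bases, aligned them with STAR to the yak genome BosGru 3.0 and counted them in coding regions with RSEM. The expected counts deposited by the authors are whole numbers per gene without normalization. The deposited FPKM values divide these counts by effective length and library total. The deposited fold changes, p-values and group means of the authors were not used.

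Counts of the 6 libraries of a comparison passed through filterByExpr, TMM scaling and the quasi-likelihood test of edgeR 4.0.16 (R 4.3.3), with Benjamini-Hochberg adjustment over all genes tested. A gene was called at an adjusted p below 0.05, and was a DTG if its log2 fold change was also at least 1 in size. The SE was taken as the size of the log2 fold change over the square root of F. Ratios within a library used FPKM + 0.01 and an exact two-sided permutation test. The ratio of counts to FPKM, set against its median per library, differed by at most 1.197 times between libraries for any member, so effective lengths hardly shifted. The edgeR p-values set a difference between groups against the spread between 3 animals per group, estimated with help from all genes tested. The permutation p cannot go below 0.1 with 3 libraries against 3.

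Values in every library are given for PSMA7, PSMA8, PSMB5 to PSMB10 and PSME1 to PSME4, other members for an adjusted p below 0.05 or the 3 highest or lowest fold changes of a comparison, and those that met neither are named to account for every member of their role. Of listed genes, those called with the largest changes were named, and others of a known role were named beside them. The members, gene lists and comparisons were chosen with earlier results of these data known. The alternatives were DESeq2 1.42.0, other scalings, no filter, a fit of all 12 libraries, limma 3.58.1 on log2(FPKM + 1) or log2(FPKM + 0.1), a block for the replicate number, and fits that each left out 1 library. The code was tested on simulated data. Tables and figures used Python 3.11.15, pandas 2.3.3, numpy 2.4.6, scipy 1.17.1 and matplotlib 3.10.9.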

Additional observations from a re-analysis of the deposited data

How the results depend on the processing

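For cattle–yak against yak of 4 years, the 22 higher and 9 lower members became 22 to 23 and 9 over the 10 settings with full groups, and leaving out 1 library gave 22 to 23 and 9. For 4 years against 6 months, the 10 higher and 21 lower members became 16 and 10 with library size alone, 17 and 9 with limma on log2(FPKM + 1), and 17 and 9 with limma on log2(FPKM + 0.1), and the DTGs went from 5 and 10 to 8 and 4, 8 and 3, and 8 and 4. Of 16133 genes, 8041 and 3470, 8206 and 3565, and 8178 and 3506 were called higher and lower there. The sign turned under these 3 settings, in that order, for PSMB4 (0.485, 0.504, 0.505), PSMB5 (0.5003, 0.516, 0.519), PSMC1 (0.0173, 0.0294, 0.0296), PSMD14 (0.0540, 0.0803, 0.0817), PSMB7 (0.0665, 0.0892, 0.0902), PSMC4 (0.425, 0.431, 0.435) and PSMD13 (0.364, 0.359, 0.3635). That of PSMA2 (0.288, 0.306, 0.308) and PSMC3 (0.375, 0.383, 0.387), called under none of them, turned as well. These settings lack the TMM factor, which lowers every 4-year value by about the same amount on the log2 scale. At 18 months against 6 months, where no member was called, DESeq2 called 1 member higher, a DTG, against 7.97% of all genes. The fit of all 12 libraries called 3 higher with 2 DTGs, against 12.8% of all genes. Leaving out 1 library gave 0 to 2 higher and 0 to 2 lower, with 0 to 2 DTGs in each direction. The 2 and 2 came without replicate 1 of 18 months, where 1424 and 1333 of 15454 genes were called. At 4 years against 18 months, DESeq2 called 7 higher and 17 lower members, against 18.7% and 21.5% of all genes, with 3 and 3 DTGs. The fit of all 12 libraries called 5 and 20, against 10.2% and 21.6%, with 3 and 3 DTGs. Leaving out 1 library gave 0 to 8 and 0 to 20 calls, with 0 to 4 and 0 to 6 DTGs. The highest counts came without replicate 2 of 18 months, where 30.2% and 26.0% of all genes were called. The causes were not tested. The log2 ratio of PSMB9 to PSMB6 at 4 years against 6 months ran from -0.0937 to 0.1055 when 1 library was left out; no other ratio changed sign, and none could pass the threshold with 3 libraries per group. Libraries with the same replicate number did not deviate together (r from -0.11 to 0.07 over genes, and not every library was closest to its own number), so the numbers were not taken as pairs; with the replicate block, 4 years against 6 months gave 7 higher and 19 lower members and each other count of calls was as without it. Depth left all members but PSMB11 testable.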
